A study of Mus musculus with 4 samples.

Results

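The genes described here encode proteins of the primary (azurophil) granules of neutrophil precursors, together with an inhibitor of those proteins, an inhibitor of a processing enzyme and a membrane protein of the same progenitors. The 7 members were chosen by name: Mpo, Elane, Prtn3, Ctsg, Cst7, Ms4a3 and Serpinb1a. All 7 were found among the 28987 genes listed, and all 7 lay above 1 TPM (a length-scaled relative abundance of transcripts) in every library. RNA sequencing was done on c-Kit-positive bone marrow cells of C57BL/6 mice, enriched with magnetic beads for stem and progenitor cells.

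Each of the 4 libraries was made from mice with 1 allele carrying a partial tandem duplication of Mll (MllPTD/WT), both Runx1 alleles floxed (Runx1Flox/Flox) and the Mx1-Cre transgene. The sample titles label all 4 libraries Runx1-null. In 2 libraries (Hif1a-intact) the labels name no other alteration. In the other 2, labelled Hif1a-null, both alleles of Hif1a, the gene of the HIF-1 subunit that oxygen controls, were floxed as well. There was thus no wild-type group. Mx1-Cre is driven by an interferon-inducible promoter that is active in many cell types, and neither the induction nor the age or the number of animals per library is given in the sources used here. Nothing shows that libraries of 1 group are from separate animals, so p-values reflect only the spread between these libraries, and that spread may be technical. The question is how primary granule transcripts differ between the libraries labelled Hif1a-intact and those labelled Hif1a-null. All of them carry MllPTD and floxed Runx1 under a Runx1-null label.

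Neutrophils make their granules in sequence. Primary granules form first, in promyelocytes, and carry myeloperoxidase and the neutrophil serine proteases; secondary and tertiary granules form later, in myelocytes and maturing cells. The proteases are made as inactive precursors, are activated by cathepsin C (Ctsc) and are held in check by serpins inside the cell. Transcription of these genes in promyelocytes is known to depend on C/EBP factors, PU.1, MYB and RUNX1 with its partner CBFB.

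Hif1a transcript did not check the labels. It read 100 and 75.2 TPM in the Hif1a-intact pair and 98.8 and 113 TPM in those labelled Hif1a-null. A gene-level value includes exons outside the floxed part, so directions below rest on the labels, and "Hif1a-null" is used as a label throughout. Runx1, floxed and labelled null in all 4 libraries, read 73.6 and 76.6 TPM against 48.4 and 46.7 TPM (limma, log2 fold change -0.65, adjusted p = 0.0636). Neither deletion could thus be read from these values. Kit read 102 to 128 TPM and Cd34 179 to 251 TPM, so the progenitor markers were present. Over all genes tested, 5.25% were called higher. Of 9 markers of maturing neutrophils, 7 rose (4 with a pseudocount of 0.1 or with no filter on low values). The 9 summed to 25939 and 22695 TPM in the Hif1a-intact and 35453 and 34210 TPM in the Hif1a-null libraries. Of the 9, 5 (Mmp8, Retnlg, Ngp, Ltf and Camp) are also on the secondary and tertiary granule list below, so these counts share genes. The 4 others (Ly6g, Cxcr2, S100a8 and S100a9), of which 3 rose, summed to 14102 and 8167 against 20935 and 19463 TPM. Markers of granulocyte-monocyte progenitors had 1 of 7 called, Cebpa, which fell, where 2.02% of all genes tested were called lower. Their log2 fold changes lay below 0 for 6 of 7, and the median over all genes tested was -0.06. These markers summed to 622 and 675 against 527 and 556 TPM. Mast cell and basophil markers summed to 547 and 303 against 60.2 and 57.4 TPM. Most of that sum was Cpa3, mast cell carboxypeptidase, which fell from 526 and 289 to 42.3 and 42.4 TPM (limma, log2 fold change -3.17, adjusted p = 0.0158; 0.0572 with no filter on low values), while Cma1, Tpsb2 and Prss34 were listed at 0. Among monocyte markers Ccr2 and Fn1 rose, and the list summed to 516 and 487 against 457 and 474 TPM. Among eosinophil markers Prg2 and Ear2 rose and Siglecf fell (sums of 68.8 and 57.8 against 104 and 102 TPM). Erythroid markers summed to 6.46 and 4.79 against 285 and 313 TPM; each of the 6 was called higher, but all 6 entered the test only through the Hif1a-null pair. Fn1 and Ear2 did so too. Without Hif1a-null replicate 1, 1 erythroid marker was called and no other on these 6 lists, and without Hif1a-null replicate 2 none was. In bulk RNA, fewer cells of a type and less RNA per cell cannot be told apart, and the part of these cell types in the results was not tested.

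The upstream sequences of the 4 enzyme genes, Mpo, Elane, Prtn3 and Ctsg, are shown because each holds the PU box GAGGAA, the core sequence bound by PU.1. Each run is the 250 bases before the RefSeq start (GRCm38.p6), on the strand of the gene, at chr11:87793534-87793783 (plus), chr10:79886062-79886311 (plus), chr10:79879417-79879666 (plus) and chr14:56102575-56102824 (minus) in that order. Capitals mark the PU box. The windows of Mpo and Elane reach past the annotated gene starts given below, and that of Prtn3 lies inside its annotated span. Distances before the start therefore refer to the RefSeq start only.
Mpo: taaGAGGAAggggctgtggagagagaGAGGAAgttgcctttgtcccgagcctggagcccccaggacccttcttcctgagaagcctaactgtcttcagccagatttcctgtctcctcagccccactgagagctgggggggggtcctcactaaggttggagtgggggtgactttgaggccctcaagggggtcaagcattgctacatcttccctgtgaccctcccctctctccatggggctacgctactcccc
Elane: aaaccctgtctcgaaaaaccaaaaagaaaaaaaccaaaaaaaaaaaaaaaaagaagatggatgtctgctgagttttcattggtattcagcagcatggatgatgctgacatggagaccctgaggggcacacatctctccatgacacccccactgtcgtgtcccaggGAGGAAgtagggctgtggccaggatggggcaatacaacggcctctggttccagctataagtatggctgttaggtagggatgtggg
Prtn3: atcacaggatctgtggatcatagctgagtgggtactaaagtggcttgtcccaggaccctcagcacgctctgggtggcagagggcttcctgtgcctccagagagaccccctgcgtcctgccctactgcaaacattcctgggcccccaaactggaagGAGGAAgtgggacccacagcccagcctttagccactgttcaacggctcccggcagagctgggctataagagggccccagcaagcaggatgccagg
Ctsg: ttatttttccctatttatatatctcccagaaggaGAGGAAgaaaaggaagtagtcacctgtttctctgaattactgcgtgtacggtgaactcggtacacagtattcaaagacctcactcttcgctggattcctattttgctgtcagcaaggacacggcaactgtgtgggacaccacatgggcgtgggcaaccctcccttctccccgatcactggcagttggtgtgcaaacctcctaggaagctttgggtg

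The PU box was found in 4 of the 6 members with a promoter entry, on either strand, and in 23.3% of 32851 promoter windows of the same length. Elane and Prtn3 carry it at a similar place, from 85 to 80 bases before the start in Elane and from 95 to 90 in Prtn3. Both also hold the MYB core AACGG, from 50 to 46 bases before the start in Elane and from 55 to 51 in Prtn3 (14.5% of all windows). The RUNX core TGTGGT was found in Ctsg and Cst7 (14% of all windows). Of the HIF cores, ACGTG was in 0 of the 6 windows (16.6% of all) and GCGTG in those of Prtn3 and Ctsg (28.2%). The C/EBP core TTGCNNAA was in 0 of the 6 (9.56% of all). A match is a description of letters and not of a bound site.

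Primary granule transcripts were abundant in all 4 libraries and none of the 7 differed between the groups beyond the test's threshold. Mpo, Prtn3 and Elane each lay between 1518 and 2859 TPM and ranked between 37 and 76 among all listed genes in every library. Together the 7 genes held 0.783% and 0.720% of all listed TPM in the Hif1a-intact pair and 0.712% and 0.723% in the Hif1a-null libraries. Of the 7, 0 were called higher and 0 lower by limma at an adjusted p under 0.05, where 7.27% of the 11909 genes tested were called, 5.25% higher and 2.02% lower. Among the 2331 tested genes with a mean of at least 50 TPM, as all 7 have, 3.17% were called. At an unadjusted p under 0.05 there were 2 members, Cst7 and Ms4a3, against 23.2% of all genes tested. The members' log2 fold changes, on the log2(TPM + 1) scale throughout, ran from -0.64 to 0.28 with a median of -0.35, against a median of -0.06 over all genes tested. A p that misses the threshold does not show that levels were alike, so the intervals below give the sizes that remain possible.

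**Figure D1:**
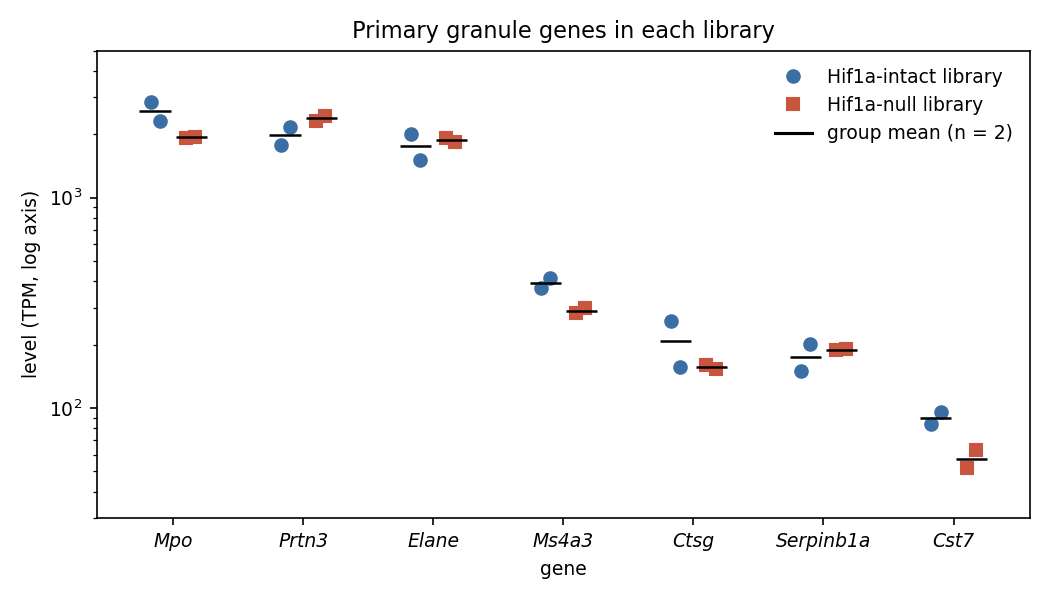
Level of each primary granule gene in TPM (log axis) in the 2 Hif1a-intact libraries (circles) and the 2 Hif1a-null libraries (squares), with group means as bars. Mpo, Prtn3 and Elane lie between 1518 and 2859 TPM in every library, and the groups overlap for Elane, Ctsg and Serpinb1a.

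Mpo encodes myeloperoxidase, the haem enzyme that makes hypochlorous acid from hydrogen peroxide and chloride. The gene lies on GRCm38 chromosome 11 (87793581 to 87804413, plus strand). It read 2859 and 2326 TPM in the Hif1a-intact pair and 1926 and 1950 TPM in the Hif1a-null libraries, so both Hif1a-null values were below both Hif1a-intact values. The group levels were 2593 ± 377 and 1938 ± 16.7 TPM (SD, n = 2 each). On the log2 scale the difference was -0.41 (standard error 0.16, 95% interval -0.85 to 0.02; limma, adjusted p = 0.232). The interval reaches from a level 0.557 times that of the Hif1a-intact group to 1.01 times it. An antisense gene, Gm11505, overlaps Mpo and shares 209 identical bases with it; it read between 3.74 and 6.15 TPM, and the strand setting of the quantification is not given.

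Elane encodes neutrophil elastase, the serine protease whose human counterpart is mutated in cyclic and severe congenital neutropenia. It lies on chromosome 10 (79886247 to 79888215, plus strand). Its levels were 2010 and 1518 TPM in the Hif1a-intact and 1914 and 1848 TPM in the Hif1a-null libraries. Both Hif1a-null values fell between the Hif1a-intact values, so the groups overlapped. The group levels were 1764 ± 348 and 1881 ± 46.4 TPM (SD, n = 2 each). The log2 fold change was 0.11 (standard error 0.19, 95% interval -0.40 to 0.61; limma, adjusted p = 0.790), and it turned to -0.096 without Hif1a-intact replicate 2.

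Prtn3 encodes proteinase 3, a close relative of elastase and the autoantigen of anti-neutrophil antibodies in granulomatosis with polyangiitis. It starts upstream of Elane on the same strand (79874476 to 79883174), and 3.07 kb separates the annotated genes. Its levels were 1790 and 2171 TPM with Hif1a intact against 2328 and 2459 TPM in the Hif1a-null libraries, the only member with both Hif1a-null values above both others. The group levels were 1981 ± 270 and 2394 ± 92.8 TPM (SD, n = 2 each). The log2 fold change of 0.28 (standard error 0.16, 95% interval -0.15 to 0.71) did not pass (limma, adjusted p = 0.382). The lowest Hif1a-null value was 1.07 times the highest Hif1a-intact value. The annotated span overlaps Plppr3, a phosphatase-related gene that shares 159 identical bases with Prtn3 and read 169 to 199 TPM.

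Ctsg encodes cathepsin G, a chymotrypsin-like protease, and lies on chromosome 14 (56099881 to 56102574, minus strand) among granzyme and mast cell protease genes. It read 259 and 156 TPM in the Hif1a-intact and 161 and 154 TPM in the Hif1a-null libraries. Hif1a-intact replicate 1 stood above the other 3 libraries, which lay between 154 and 161 TPM. The group levels were 207 ± 73.0 and 157 ± 4.95 TPM (SD, n = 2 each). The log2 fold change was -0.35 (standard error 0.28, 95% interval -1.12 to 0.41; limma, adjusted p = 0.531). Without Hif1a-intact replicate 1 it was 0.012.

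Serpinb1a encodes a serpin that inhibits elastase, proteinase 3 and cathepsin G inside the cell (chromosome 13, 32842092 to 32851185, minus strand). It read 149 and 201 TPM in the Hif1a-intact and 188 and 190 TPM in the Hif1a-null libraries, and the Hif1a-null values fell between the others. Its log2 fold change was 0.13 (standard error 0.19, 95% interval -0.39 to 0.65; limma, adjusted p = 0.746), and -0.083 without Hif1a-intact replicate 1. Its paralogues Serpinb1b and Serpinb1c read at most 0.158 TPM in any library. Set against the summed level of its 3 target proteases, Serpinb1a stood at 3.68% and 5.21% in the Hif1a-intact and at 4.27% in both Hif1a-null libraries.

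Cst7 encodes cystatin F, a cysteine protease inhibitor of the endolysosomal pathway that can block cathepsin C (chromosome 2, 150570415 to 150578944, plus strand). It read 83.7 and 95.9 TPM in the Hif1a-intact and 52.0 and 62.8 TPM in the Hif1a-null libraries, without overlap. The group levels were 89.8 ± 8.57 and 57.4 ± 7.62 TPM (SD, n = 2 each). Among the 7 it had the lowest log2 fold change, -0.64 (standard error 0.17, 95% interval -1.09 to -0.19), and the lowest adjusted p (limma, 0.121). The interval leaves 0 out, as it does for Ms4a3 and for no other member, but neither was called after adjustment over all genes. Ctsc itself was much lower, at 16.5 and 10.8 TPM against 19.5 and 15.9 TPM, and the ratio of Cst7 to Ctsc was 5.09 and 8.84 against 2.67 and 3.95.

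Ms4a3 encodes a membrane protein with 4 transmembrane passes that marks granulocyte-monocyte progenitors and regulates the cell cycle (chromosome 19, 11629496 to 11640851, minus strand). It read 373 and 414 TPM in the Hif1a-intact and 282 and 298 TPM in the Hif1a-null libraries. The groups did not overlap, at 394 ± 28.9 and 290 ± 11.0 TPM (SD, n = 2 each). The log2 fold change was -0.44 (standard error 0.13, 95% interval -0.81 to -0.07; limma, adjusted p = 0.163).

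The groups did not overlap for 4 of the 7 members, 3 lower (Mpo, Cst7, Ms4a3) and 1 higher (Prtn3) in the Hif1a-null libraries. Over all genes tested, 55% had groups that did not overlap, 32.3% with the Hif1a-null pair lower and 22.7% with it higher, so the members' count lay near the background. The Hif1a-intact pair was farther apart than the Hif1a-null pair for 6 of the 7 members, Cst7 being the exception, and for 70.8% of all genes tested. By mean level over the 4 libraries the order was Mpo (2265 TPM), Prtn3 (2187), Elane (1823), Ms4a3 (342), Ctsg (182), Serpinb1a (182) and Cst7 (73.6). The ranges of Mpo, Prtn3 and Elane over the libraries overlapped, as did those of Ctsg and Serpinb1a. Ms4a3 lay apart from its neighbours in this order in all libraries, and so did Cst7.

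Within a library, ratios between members do not change when all its values are multiplied by 1 factor; quantile normalization is no such scaling. Mpo made up 38.0% and 33.8% of the 7 genes' summed TPM in the Hif1a-intact pair and 28.1% and 28.0% in the Hif1a-null libraries. Prtn3 made up 23.8% and 31.6% against 34.0% and 35.3%. The share of Elane was 26.7% and 22.1% against 27.9% and 26.5%, and overlapped. Mpo was thus the most abundant member in each Hif1a-intact library, and Prtn3 in each Hif1a-null library. The ratio of Mpo to Elane was 1.42 and 1.53 in the Hif1a-intact and 1.01 and 1.05 in the Hif1a-null libraries. The summed level of the 3 serine proteases was 4059 and 3845 TPM against 4402 and 4461 TPM. These ratios are given as values without a test, since a two-sided exact permutation test of 2 libraries against 2 cannot go below p = 0.333.

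**Figure D2:**
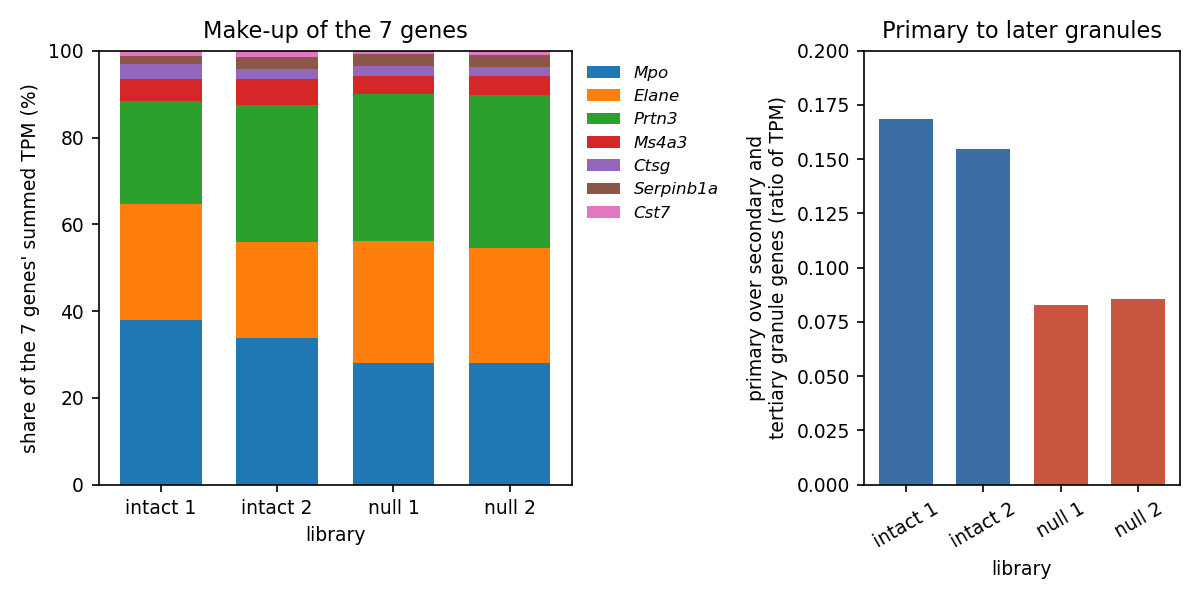
Left, share of each of the 7 genes in their summed TPM (%), in each library. Right, summed TPM of the 7 genes over that of the 13 secondary and tertiary granule genes; it was 0.169 and 0.155 in the Hif1a-intact pair and 0.0827 and 0.0856 in the Hif1a-null libraries.

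Later granule genes gave other values in the same libraries. Of 13 secondary and tertiary granule genes, 6 rose and 0 fell by limma, with a median log2 fold change of 0.69. For comparison, 5.25% of all genes tested were called higher. The count of 6 became 5 with a pseudocount of 0.1 or with no filter on low values. It became 4 after quantile normalization or with a mean-variance trend. With the 20 most abundant other genes left out, 4 of the 11 tested were called. The collagenase gene Mmp8 rose from 3.59 ± 0.672 to 29.8 ± 0.949 TPM, and the lactoferrin gene Ltf from 677 ± 32.7 to 1603 ± 30.6 TPM (SD, n = 2 each; limma, adjusted p = 0.00655 and 0.0164). Camp, the cathelicidin gene, was not called, at -0.16 on the log2 scale (0.033 when Hif1a-intact replicate 2 was left out). Without either Hif1a-null library 0 of the 13 passed, in a fit whose spread rests on the Hif1a-intact libraries only; the medians were 0.73 and 0.61. Summed TPM of the 7 primary granule genes over that of this list was 0.169 and 0.155 in the Hif1a-intact libraries against 0.0827 and 0.0856 in the Hif1a-null libraries. Chil3, a chitinase-like gene at 27349 to 64447 TPM, carried most of the list. Without it the ratio was 0.519 and 0.401 against 0.373 and 0.366, with group means of 0.460 and 0.370. For a single pair of genes, Mpo over Ltf was 4.09 and 3.56 against 1.19 and 1.23. Other pairs can differ, since Ltf was called higher while Camp overlapped between the groups. Camp read 8917 and 11693 TPM in the Hif1a-intact and 8951 and 9296 TPM in the Hif1a-null libraries. The difference between the 2 sets of genes was not tested.

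**Figure D3:**
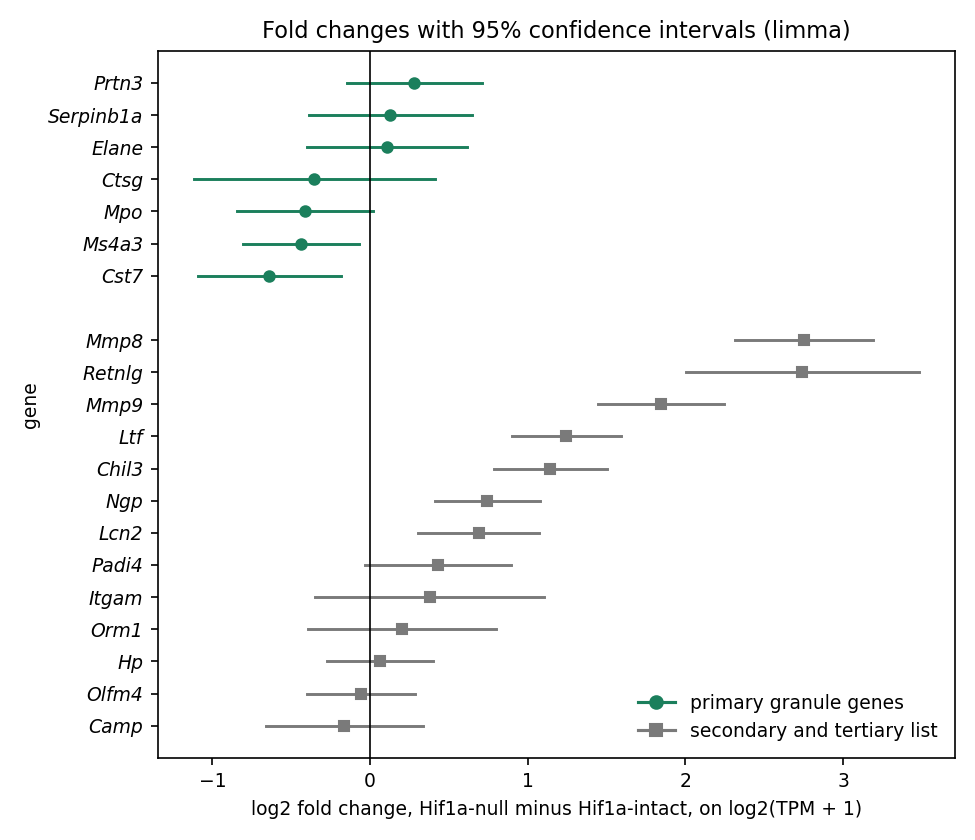
Log2 fold change of each gene, Hif1a-null minus Hif1a-intact, on log2(TPM + 1), with 95% confidence intervals from limma (2 libraries a group). The intervals of 5 of the 7 primary granule genes include 0; among later granule genes the values run up to 2.75 (Mmp8).

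Other proteins of the primary granule varied among themselves. Of 12 on the list, 11 were tested, 1 rose, 1 fell and 9 were not called, with a median log2 fold change of -0.35; Bpi was listed at 0 in every library. Lyz2, the lysozyme of all neutrophil granules and of macrophages, rose from 3382 and 3402 to 7005 and 7048 TPM (limma, log2 fold change 1.05, adjusted p = 0.0217). The call was lost with a mean-variance trend (adjusted p = 0.0537; 0.0130 to 0.382 over its alternatives). Its near-identical copy Lyz1 read at most 7.21 TPM. The ratio of Mpo to Lyz2 was 0.845 and 0.684 against 0.275 and 0.277. Cd63, a tetraspanin of the granule membrane, fell from 92.3 and 76.6 to 19.1 and 18.7 TPM (limma, log2 fold change -2.09, adjusted p = 0.00851). The mast cell marker Cpa3 fell between the same libraries. On the same marker list Ms4a2 (log2 fold change 0.20) and Mcpt8 (-0.62) were not called. The part of mast cells in the Cd63 values was not tested. Man2b1, a lysosomal mannosidase, read 115 and 113 TPM against 70.6 and 70.2 TPM, and Ctsz, cathepsin Z, 86.2 and 89.8 TPM against 55.3 and 49.4 TPM, neither called. Both were called lower with a pseudocount of 5, with a mean-variance trend and with protein-coding genes only, which gave 3 lower calls on the list, and Man2b1 also with no filter on low values (limma, adjusted p 0.0362 to 0.618 for Man2b1 and 0.0403 to 0.643 for Ctsz over their alternatives). Prss57, the fourth neutrophil serine protease and a neighbour of Prtn3 and Elane, read 67.4 and 93.8 TPM against 55.2 and 52.8 TPM and was not called (limma, adjusted p = 0.217). Without either Hif1a-null library 0 members of this list passed.

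Among 15 genes for the folding, processing and sorting of granule proteins, 0 rose, 1 fell and 14 were not called, with a median log2 fold change of -0.26. The gene that fell was Calr, which encodes calreticulin, an endoplasmic reticulum chaperone that binds the myeloperoxidase precursor. It read 1644 and 1698 TPM in the Hif1a-intact and 861 and 849 TPM in the Hif1a-null libraries (limma, log2 fold change -0.97, standard error 0.12, adjusted p = 0.0267). The related chaperone gene Canx, calnexin, read 318 and 330 TPM against 238 and 254 TPM. Hspa5, the chaperone BiP, read 477 and 528 TPM against 394 and 392 TPM, and Rab27a, a GTPase of granule release, 96.8 and 110 TPM against 77.9 and 78.2 TPM. None of these 3 was called. Without either Hif1a-null library Calr was not called. Vps45, a vesicle sorting gene, read 49.4 and 11.7 TPM in the Hif1a-intact pair, on either side of the Hif1a-null values of 29.4 and 28.5 TPM. Its log2 fold change was 0.25 with all libraries, 1.24 without Hif1a-intact replicate 1, where it was called (limma, adjusted p = 0.0334; 0.0334 to 0.991 over its alternatives), and -0.75 without Hif1a-intact replicate 2.

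Regulators of primary granule genes had 1 member called of 12, and all 12 log2 fold changes lay below 0 (9 of 12 after quantile normalization, and 10 of 12 without Hif1a-intact replicate 2). The median was -0.45, against -0.06 over all genes tested, of which 2.02% were called lower. More of all genes tested thus also lay below 0 than above it. Cebpa, Gfi1 and Irf8 are also among the markers of granulocyte-monocyte progenitors above, so these counts share genes. Cebpa, the transcription factor needed to form granulocyte-monocyte progenitors, fell from 31.2 ± 3.69 to 13.3 ± 0.406 TPM (SD, n = 2 each; limma, log2 fold change -1.17, standard error 0.15, adjusted p = 0.0260). Gfi1, a repressor needed for neutrophil differentiation, read 72.3 and 74.0 TPM against 52.4 and 47.6 TPM. Myb, the progenitor transcription factor, read 253 and 317 TPM against 186 and 188 TPM, and neither was called. Without either Hif1a-null library Cebpa was not called.

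Protease inhibitors other than Serpinb1a and Cst7 included a group of genes that rose. Of 16 listed, 13 were tested, 4 rose and 0 fell, and all 4 were stefins, cytosolic inhibitors of cysteine cathepsins. Over all genes tested, 5.25% were called higher. With protein-coding genes only, 12 on the list were tested, 4 were called higher and 1 lower. Stfa1 rose from 2.64 and 3.67 to 67.0 and 62.8 TPM (limma, log2 fold change 4.0, adjusted p = 0.00492) and Stfa2l1 from 10.9 and 16.0 to 61.0 and 62.4 TPM (log2 fold change 2.14, adjusted p = 0.0158). Stfa3 rose from 2.52 and 0.656 to 21.9 and 26.6 TPM. Stfa2 read under 1 TPM in the Hif1a-intact pair and 7.89 and 4.79 TPM in the other, and its call was lost without either Hif1a-intact library. Stfa2 and Stfa3 entered the test only through the Hif1a-null pair. Stfa1 has the near-identical copy BC100530, and Stfa2 and Stfa2l1 are near-identical to each other, so the split of reads among them is uncertain. Without either Hif1a-null library 0 of these passed, and with no filter on low values 1 of the 4 did (Stfa1).

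**Figure D4:**
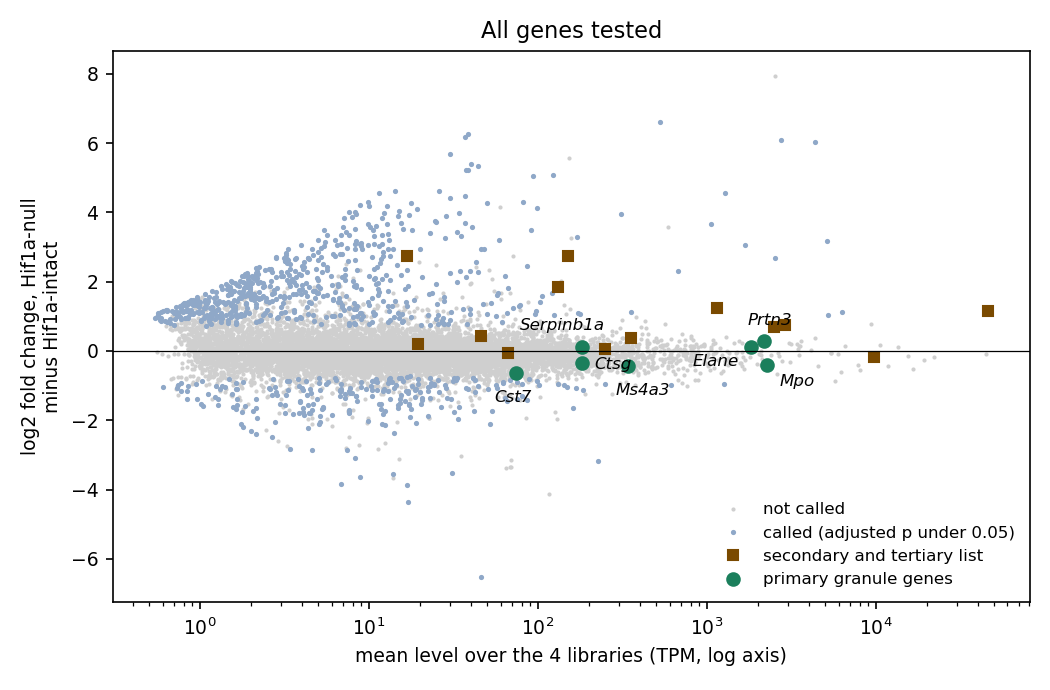
Log2 fold change of every gene tested (Hif1a-null minus Hif1a-intact) against its mean level in TPM (log axis), with called genes in blue. The 7 primary granule genes, between 73.6 and 2265 TPM on average, lie within the uncalled cloud, from -0.64 (Cst7) to 0.28 (Prtn3).

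Relatives of Ms4a3 did not move in a common direction. Of 15 Ms4a genes listed, 13 were in the table and 7 were tested. Among those tested, Ms4a6d entered only through the Hif1a-null pair, where it is high. Ms4a4c fell from 91.3 and 74.1 to 27.0 and 21.5 TPM, and Ms4a4b rose from 23.1 and 24.3 to 59.0 and 52.5 TPM (limma, adjusted p = 0.0199 and 0.0211). Ms4a6c, at 101 and 65.4 TPM against 32.4 and 31.5 TPM, and Ms4a6d, at 1.49 and 0.830 TPM against 3.52 and 3.34 TPM, were not called, but both were with median-ratio rescaling (limma, adjusted p = 0.0473 and 0.0465) and with protein-coding genes only (0.0389 and 0.0393), each of which gave 2 higher and 2 lower calls; their adjusted p ran from 0.0310 to 0.435 and from 0.0331 to 0.459 over their alternatives. With no filter on low values Ms4a4c was not called (adjusted p = 0.0534; 0.0104 to 0.225 over its alternatives). Leaving out 1 library gave from 0 (either Hif1a-null library) to 2 higher and 3 lower calls (without Hif1a-intact replicate 2). Of 13 other granule serine proteases of lymphoid, mast and related cells, 2 were tested. Gzma, granzyme A, was at 0 in the Hif1a-intact pair and at 4.36 and 3.02 TPM in the others, through which alone it entered the test, and Mcpt8, a basophil protease encoded near Ctsg, read 6.00 and 4.34 TPM against 4.03 and 2.15 TPM. The mast cell genes Cma1, Tpsb2, Tpsab1 and Mcpt1 were listed at 0 in every library. Ms4a2, the beta chain of the IgE receptor of mast cells and basophils, read 14.7 and 8.82 TPM against 13.8 and 12.8 TPM, and Cpa3 is given above.

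The genes around the members were mostly uncalled. Within 100 kb, 0 of the tested neighbours of Mpo (6), Elane (10), Prtn3 (11), Ctsg (1), Cst7 (3) and Serpinb1a (2) were called. Elane and Prtn3 share most of theirs. Among 5 tested neighbours of Ms4a3, 2 fell, the oocyte-secreted protein genes Oosp2 and Oosp1, 6.43 and 26.6 kb away. Oosp1 read 59.2 and 57.3 TPM in the Hif1a-intact and 4.28 and 3.93 TPM in the Hif1a-null libraries, and Oosp2 10.9 and 6.78 against 0.122 and 0.564 TPM. Oosp2 entered the test only through the Hif1a-intact pair, where it is high, and was not tested when either of those libraries was left out. Ms4a3 itself read 282 TPM or more in every library. Neither Oosp gene was called without either Hif1a-null library, and Oosp2 was not called with no filter on low values.

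The median pattern of the 7 over the 4 libraries was close to that of many other genes, and the members did not share it closely. The median of their centred log2 values was 0.15 and 0.06 in the Hif1a-intact and -0.14 and -0.18 in the Hif1a-null libraries. Among 2128 named genes with a mean of at least 50 TPM, the nearest by Euclidean distance over the 4 libraries were Polr2b (0.064), Arhgef1 (0.065) and Mtmr6 (0.068), none of which was called. Mpo was the nearest member, at 0.22, and Prtn3 the farthest, at 0.61. Of the 2128 genes, 311 lay nearer than Mpo and 1279 lay nearer than the median distance of the members.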

How the data were processed

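RNA from c-Kit-positive marrow cells was made into Illumina libraries, per the labels' protocols. kallisto and mm10 are named in the submitters' processing notes; its version, its strand setting and the transcripts used were not given in the sources used here. Values were deposited as TPM per Ensembl gene, a unit inferred from the values, which sum to between 955562 and 963135 per library. Read counts cannot be had from TPM; the depth is therefore unknown and intervals cover only the spread between libraries. Names and coordinates came from GENCODE vM21 (GRCm38, also called mm10), which gave 27458 of 28987 genes a symbol.

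Groups came from the genotype labels. Genes that reached 1 TPM in 2 or more libraries were tested on log2(TPM + 1) by limma 3.58.1 (eBayes, two-sided; R 4.3.3). P-values were adjusted over all genes tested by Benjamini-Hochberg, with a threshold of 0.05. It was tested on simulated data. Intervals are the 95% limits of that fit. Near-identical copies were sought with blastn 2.17.0 (at least 95% identity over 100 bases and 50% of the shorter transcript), and no member had one. Promoter windows are from RefSeq, where 6 of 7 members had an entry. Alternatives were other scalings, filters, pseudocounts and variance models, and each library left out. Named were all members, up to 4 genes of smallest p per list, called neighbours within 100 kb and the 3 genes of nearest pattern; Prss57, Ctsc, Camp, Chil3, Vps45, Cpa3, Ms4a2 and other markers were named, and the motifs chosen, after values or sequences were seen. The members and lists were chosen with earlier results of these data known. matplotlib 3.10.9 (Python 3.11.15) drew the figures.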

Additional observations from a re-analysis of the deposited data

How the results depend on the processing

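Under all 14 alternatives 0 of the 7 primary granule genes were called in either direction by limma. Where every library was kept, the number at an unadjusted p under 0.05 was 2 or 3, against 2 in the main fit. In the main fit 23.2% of all genes tested had such a p. The lowest adjusted p any member reached with every library kept was 0.0933 (limma, Cst7 with protein-coding genes only). Mpo, Prtn3, Cst7 and Ms4a3 kept their direction in every alternative. Their groups did not overlap, so leaving out 1 library or changing the pseudocount, filter or variance model could not have reversed them. Without Hif1a-intact replicate 1 and without replicate 2, the log2 fold changes were 0.31 and -0.096 for Elane, 0.012 and -0.72 for Ctsg, -0.083 and 0.34 for Serpinb1a, -0.36 and 0.033 for Camp, -0.051 and 0.46 for Orm1 and 1.24 and -0.75 for Vps45, so each of these changed direction in 1 of them. Olfm4 did so after quantile normalization (0.027). The cause was not tested. Over all genes, 625 were higher and 241 lower. The higher count was 399 with a pseudocount of 5 and 332 with at least 5 TPM in 2 libraries, and the lower count 138 with no filter, where more genes were tested. With 1 library left out the higher count ran from 0 to 731 and the lower from 0 to 288. The lowest came without Hif1a-null replicate 2 (0 and 0) and without Hif1a-null replicate 1 (11 and 8), when the spread came from the Hif1a-intact pair alone. The 6 secondary and tertiary granule genes called higher became 0 to 5 with 1 library left out. The alternatives for genes outside the 7 were added after seeing the data. Summing members with near-identical copies was not run, since none has a copy. No paired analysis was possible because the labels give no replicate numbers shared between the groups. Depth is unknown, so what it limits could not be measured.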
